A study of Mus musculus with 44 samples.

Results

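The S-phase cells of the fGTS2 tumor library were 533 of its 4498 cells, or 11.8% (95% exact binomial interval 10.9 to 12.8, which covers counting error only). They were chosen by measured values: a cell was counted as S-phase when it held at least 1 UMI, the tag of 1 captured RNA molecule, in at least 5 of the 8 genes Cdc6, Ccne2, Dtl, Exo1, Clspn, Hells, Mcm6 and Ung, and in at most 4 of the 8 mitotic genes Plk1, Aurka, Cenpe, Hmmr, Cenpf, Cdc20, Ccnb1 and Nusap1. The other 3965 cells of the library served as the comparison. Cells that met the S criterion but held 5 or more mitotic genes are called S-and-mitotic cells (921), cells with the mitotic genes alone mitotic cells (803), and cells that met neither criterion low-cycle cells (2241).

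The series is a study of recurrence in medulloblastoma, a cerebellar tumor, modelled in mice, and of cells that express the transcription factor Sox9. The fGTS2 library is 1 untreated sample labelled as a GTS tumor, and the second single-cell library, GTML_SOX9GFP, is 1 sample of a GTML tumor with 4645 cells. The title of the second is GTML_SOX9-GFP, and the part of SOX9-GFP in differences between the libraries was not tested. GTML tumors are known to arise from a MYCN transgene switched on through the promoter of Glt1 (Slc1a2) and switched off by doxycycline (DOX). Cells of 2 lines, GTML3 and preGTS1, were each given DMSO, the solvent, or DOX, with 3 bulk RNA samples per condition. The labels give no age, strain, dose or time for any of these groups, and neither the alleles of the GTS tumors nor the number of animals behind a library is given in the sources used here. With 1 library of each kind, no difference between cell classes or between the single-cell libraries carries a test.

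A dividing cell copies its DNA once, in S phase. In G1 the MCM helicase is loaded on origins with the help of Cdc6, and cyclin E with its kinase starts both replication and a wave of transcription driven by E2F factors. Later, cyclin A, histone genes and then the cyclin B program of G2 and mitosis take over. MYCN is known to push cells through the entry into S phase.

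The S-phase cells spanned the whole range that the rule allows in both counts. Of the 533 S-phase cells, 87 held none of the 8 mitotic genes, 134 held 1, 105 held 2, 114 held 3 and 93 held 4. By S genes, 97 cells held 5, 125 held 6, 167 held 7 and 144 held all 8. The upper limit on mitotic genes cut through an even stretch of cells, with 93 cells just inside it at 4 mitotic genes and 93 just outside at 5. Their pooled S genes summed to 889 and 839 CPM (UMIs of a gene per 1000000 UMIs of the same cells, pooled over the cells), and their mitotic genes to 342 and 487. The lower limit on S genes had 97 cells just inside at 5 genes and 84 just outside at 4, with summed S genes of 492 and 366 CPM.

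**Figure D1:**
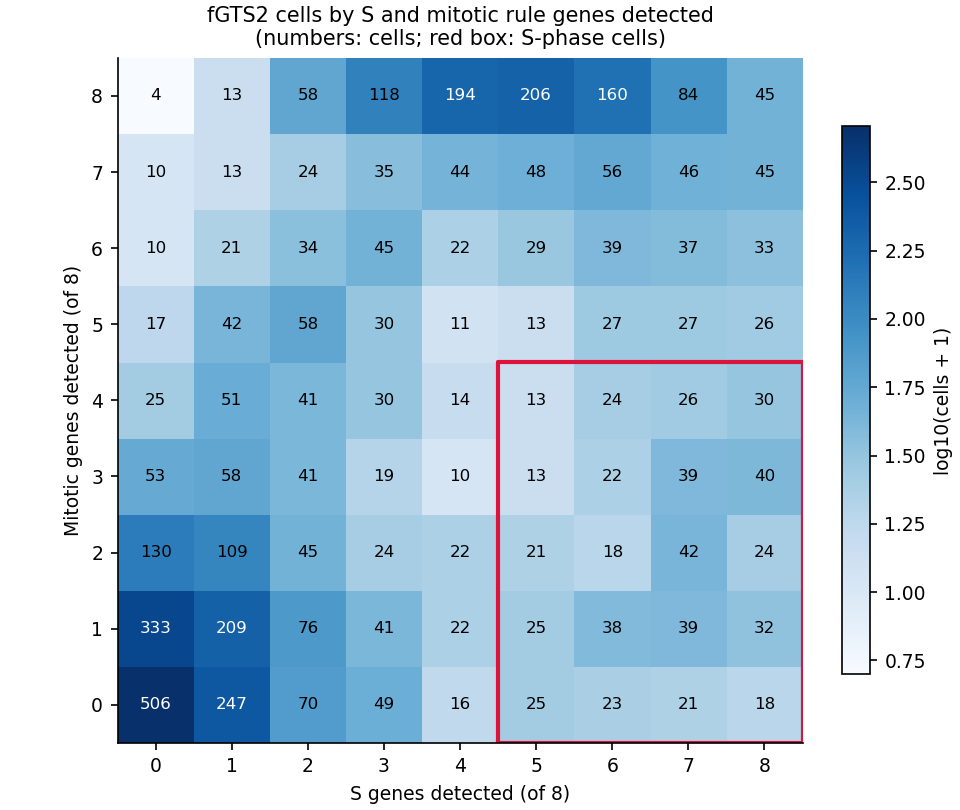
Number of fGTS2 cells for each number of S genes (x axis, of 8) and mitotic genes (y axis, of 8) detected. Colour gives log10 of the cell number plus 1. The red box holds the 533 S-phase cells, and the corner with no S and no mitotic gene holds 506 cells.

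S-phase cells held a median of 22655 UMIs, against 30548 in S-and-mitotic cells, 23391 in mitotic cells and 17706 in low-cycle cells. After each cell was thinned to 10000 UMIs, the median number of genes detected was 2847 in S-phase cells and 2833.5, 2892 and 2715 in mitotic, S-and-mitotic and low-cycle cells. Mitochondrial transcripts took 7.66% of the UMIs in S-phase cells and 7.47% in the others. Because detection rises with depth, a rule that counts detected genes moves with it. Of 524 S-phase cells with at least 10000 UMIs, 318 met the same rule on thinned counts, and 155 of the 473 cells that met it after thinning were S-and-mitotic cells at full depth. The depth differences between the classes were not removed from the pooled levels below, and their part in them was not tested.

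The 16 genes of the rule are given as a description of the choice. Among the S genes, Ung, which removes uracil from DNA, had the largest ratio, at 123 CPM in S-phase cells and 17.7 in the others. Its level was 34.7 in S-and-mitotic cells, 6.27 in mitotic cells and 10.6 in low-cycle cells. Cdc6, the MCM loader, stood at 52.4 and 9.51, and Ccne2, cyclin E2, at 50.7 and 10.8. Dtl, a substrate receptor that marks Cdt1 for destruction, stood at 133 and 43.8, and Exo1, an exonuclease of mismatch repair, at 58.9 and 23.1. The smallest ratio was that of Mcm6, a subunit of the helicase, at 123 and 70.4, and its level was higher in S-and-mitotic cells (137). Clspn, a checkpoint adaptor, and Hells, a chromatin remodeller, had 112 and 187 in S-phase cells against 42.9 and 65.1. The mitotic genes ranged from 4.29 (Nusap1, a spindle microtubule protein) to 69.3 CPM (Cenpf, a kinetochore protein) in S-phase cells, where mitotic cells held 177 and 581.

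Genes outside the rule were set beside the label S-phase. Of 36 other S-phase genes in a list used for cell-cycle scoring, 35 reached 10 CPM over all cells, and 33 of those 35 were higher in S-phase cells than in the others, where 3546 of all 7099 genes tested were. The list's median log2 ratio was 0.77, against -0.0002 over all genes tested. Against S-and-mitotic cells alone, 12 of the 35 were higher, with a median of -0.21, where 3282 of all 7099 genes tested were, with a median of -0.02. The list summed to 3168 CPM in S-phase and 3539 in S-and-mitotic cells. Of 43 G2 and mitosis genes tested of 45, 39 were lower, with a median of -0.89. Against low-cycle cells the median of the 43 was 1.23. The rule limits mitotic genes and leaves cells rich in them to the comparison, so this list cannot check the label. These genes were measured in the cells that the rule divided, so all ratios between the classes are descriptions.

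Among the 7099 genes tested, 28 (0.394%) were at least 2-fold higher in S-phase cells than in all other cells, and 54 (0.761%) at least 2-fold lower. Of the 28, 3 were in the list of origin genes and 6 in that of fork and polymerase genes, and 7 were in none of the lists. Ccne1, cyclin E1, led with 53.7 CPM (exact Poisson interval 49.8 to 57.8) against 15.1 (14.3 to 15.9), a log2 ratio of 1.83. Its level was 32.0 in S-and-mitotic cells and equally low in mitotic (6.53) and low-cycle cells (6.57). The counts depend on where the lines of the rule were drawn. They were 111 higher and 24 lower with the rule applied to thinned cells, 14 and 84 with at most 2 mitotic genes, and 198 and 8 with no limit on mitotic genes.

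Zfp367, a zinc finger transcription factor, followed at 26.6 CPM against 9.35. Atad5, which takes the PCNA clamp off DNA, stood at 59.9 against 21.7, and Wdr76, a WD-repeat protein, at 41.9 against 15.8. Casp8ap2, needed for histone RNA processing, had 96.1 against 37.6. The pair of large subunits of chromatin assembly factor 1, which sets histones on new DNA, stood side by side, Chaf1a with 69.3 against 27.2 and Chaf1b with 93.9 against 38.5. The helicase subunit Mcm4 stood at 112 against 44.1, the fork protein Wdhd1 at 45.7 against 18.1 and the initiation factor Mcm10 at 47.6 against 19.4. The chromatin ATPase Atad2 (148 against 62.6), the repair gene Brca1 (47.5 against 20.2), the protease gene Fam111a (103 against 44.6) and the origin-firing kinase Cdc7 (20.9 against 9.03) were also among the 15 genes with the highest ratio. Tmem121, which encodes a membrane protein and belongs to none of the lists, was the fifteenth by ratio at 33.6 against 14.6.

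Tmem121 had a different shape from the rest. Of the 28 genes, 27 were also at least 2-fold above low-cycle cells and 26 above mitotic cells, but only Tmem121 was 2-fold above S-and-mitotic cells. It was also the gene of the 28 that missed 2-fold against low-cycle cells, where it held 19.0 CPM against 13.7 in S-and-mitotic and 6.58 in mitotic cells. Brca1 and Mcm10, by contrast, were lowest in low-cycle cells, where Brca1 held 2.10 and Mcm10 2.44 CPM.

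**Figure D2:**
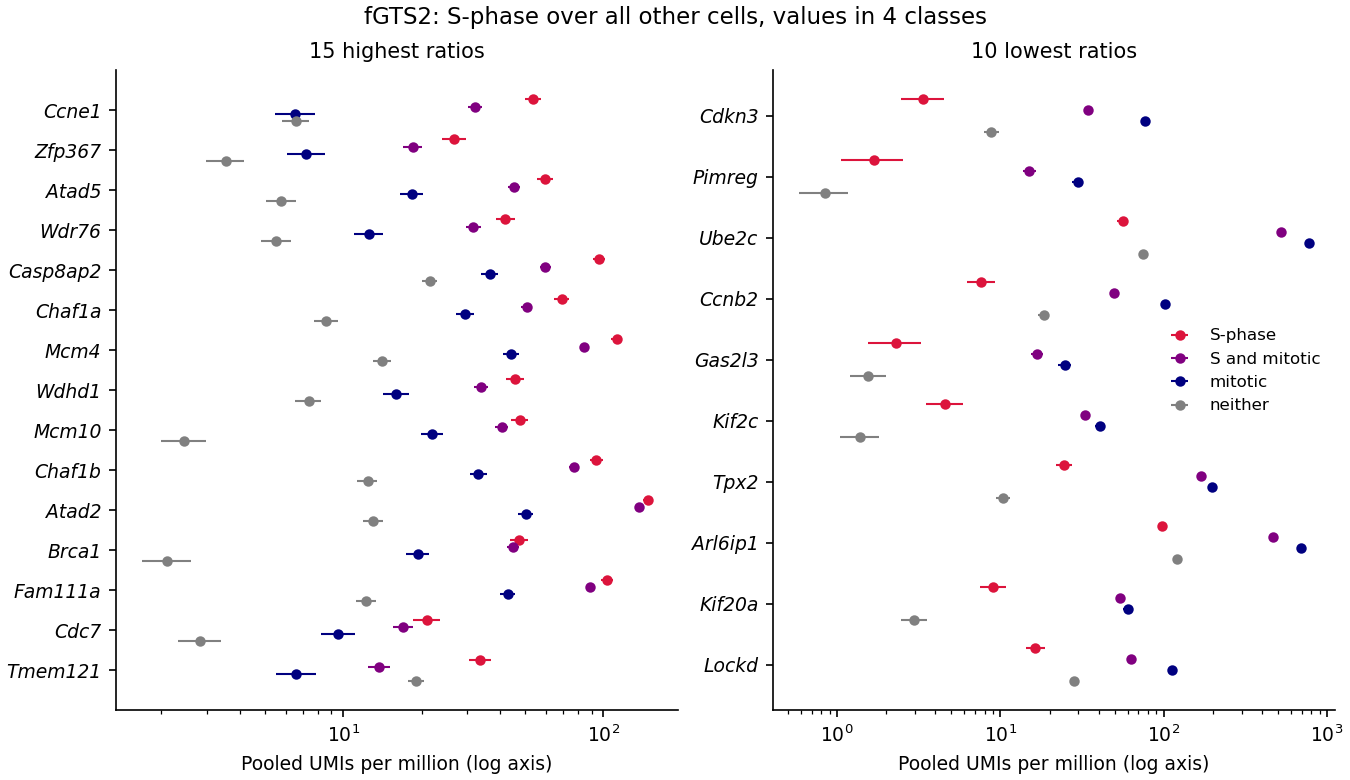
Pooled CPM (log axis) of the 15 genes with the highest (left) and the 10 with the lowest (right) ratio of S-phase to all other fGTS2 cells. Points are the 4 cell classes and bars exact 95% Poisson intervals, which cover counting error only. For 14 of the 15 genes on the left low-cycle cells hold the lowest or, for Ccne1, almost the lowest level, while Tmem121 is lowest in mitotic cells.

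Seen by role, the replication genes were higher to different degrees. Of 20 tested origin genes out of 25 listed, 17 were above the other cells and 3 at least 2-fold (Mcm4, Mcm10 and Cdc7), where 3546 of 7099 genes were above and 0.394% at least 2-fold. Against S-and-mitotic cells, 8 of the 20 were above, with a median log2 ratio of -0.07, where 3282 of 7099 genes were above, a share near that of the list. Mcm3, another helicase subunit, was just under 2-fold over the other cells at 140.3 against 73.2 CPM. Dbf4, the partner of the Cdc7 kinase, was below the other cells at 44.3 against 49.6. Of 30 tested fork and polymerase genes, 22 were above the other cells, 5 above S-and-mitotic cells, and 6 at least 2-fold above the other cells, among them Rpa2, a single-strand binding subunit (103 against 48.3), and the clamp-loader subunits Rfc3 and Dscc1. Slbp, which binds the stem-loop of histone RNAs and was counted in this list and in the histone list, had 165 against 77.5. The polymerase gene Pola1 (35.1 against 36.9) and the clamp-loader gene Rfc2 (78.0 against 81.0) did not stand above the other cells.

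Of 26 nucleotide synthesis genes, 21 were above the other cells and 0 reached 2-fold, with a median log2 ratio of 0.22. Of all 7099 genes, 3546 were above and 0.394% at least 2-fold. Against low-cycle cells 25 of the 26 were above and 10 at least 2-fold, with a median of 0.84, where 3775 of 7099 genes were above and 4.17% at least 2-fold. Rrm2, the regulated subunit of ribonucleotide reductase, had 152 CPM in S-phase cells and 192 in S-and-mitotic cells, against 97.3 in mitotic and 13.8 in low-cycle cells. Umps, of pyrimidine synthesis, had 71.1 against 42.5 in all other cells, and Impdh2, of guanine nucleotide synthesis, 278 against 318.

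Of 22 tested repair and checkpoint genes out of 36, all 22 were above the other cells and 3 at least 2-fold, namely Brca1, the recombination factor Rad51ap1 (68.0 against 31.1) and the mismatch repair gene Msh6 (62.5 against 30.5). Of all 7099 genes tested, 3546 were above the other cells and 0.394% at least 2-fold. Against S-and-mitotic cells, 9 of the 22 were above, with a median log2 ratio of -0.05, where 3282 of 7099 genes were above, a share near that of the list. Of 21 tested G1/S regulators, 3 were at least 2-fold higher and 1 at least 2-fold lower, where 0.394% and 0.761% of all genes were. The higher ones were Ccne1, E2f1, an activating E2F (46.5 against 22.5), and Cdc25a, the phosphatase that activates cyclin E kinase (84.5 against 41.4). The lower one was Ccna2, cyclin A2, at 31.9 against 75.6. Ccna2 still stood above low-cycle cells, which held 8.00. Against S-and-mitotic cells, 9 of the 21 G1/S regulators were above, with a median log2 ratio of -0.04, again near the share over all genes.

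Of the 54 lower genes, 20 were in the list of G2 and mitosis genes and 22 in any list. Cdkn3, a phosphatase that acts on CDK1 and CDK2, was the lowest by ratio at 3.37 CPM (2.45 to 4.52) against 32.0 (30.8 to 33.2). It was also below low-cycle cells (8.79). Ube2c, the ubiquitin-conjugating enzyme of the anaphase-promoting complex, held 56.0 against 376, and Ccnb2, cyclin B2, 7.65 against 47.0. Pimreg (1.68 against 11.8), Gas2l3 (2.30 against 11.7), the kinesins Kif2c (4.59 against 20.5) and Kif20a (9.03 against 32.3), and the spindle assembly factor Tpx2 (24.6 against 104) followed. Arl6ip1, of the endoplasmic reticulum membrane, had 97.9 against 361, and the non-coding RNA Lockd 16.4 against 58.0. All 54 were at least 2-fold below both mitotic and S-and-mitotic cells. Only 4 of the 54 were 2-fold below low-cycle cells as well, and these were Cdkn3, Ccnb2, the chromatin factor gene Arid5b and Apoh, a secreted apolipoprotein, the last pair named after their values were seen.

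The classes taken singly gave other counts. Against low-cycle cells, 296 genes (4.17%) were at least 2-fold higher and 13 (0.183%) lower, and the 43 tested G2 and mitosis genes had a median log2 ratio of 1.23. Rad51ap1 had the highest of these ratios, at 68.0 CPM against 2.71. Against mitotic cells, 76 genes (1.07%) were higher and 131 (1.85%) lower. Against S-and-mitotic cells, 113 (1.59%) were lower and 4 (0.0563%) higher, namely Tmem121, Mxd4, Art5 and the gene model Gm17322. Mxd4, a MAX partner that opposes MYC proteins, held 70.7 in S-phase, 25.0 in S-and-mitotic, 32.3 in mitotic and 126 in low-cycle cells.

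Within the S-phase cells, genes were then followed by the number of mitotic genes detected, a measure that the rule used as a limit and that rises with depth (median UMIs from 21927 with 0 to 24201 with 4 mitotic genes). In S-phase cells with 3 or 4 mitotic genes, 93 genes (1.31%) were at least 2-fold above those with 0 or 1, and 3 (0.0423%) at least 2-fold below. Of 15 tested genes of the G1/S onset list, 14 were higher with 3 or 4 than with 0 or 1, with a median log2 difference of 0.55, where 3811 of 7099 genes were. Ung, Cdc6 and Cdc25a, named here with their values seen, differed less. Ung ran from 115 CPM with no mitotic gene to 139 with 2 and 103 with 4, and, outside the S-phase cells, stood at 21.6 in cells with 5 or more S genes and all 8 mitotic genes. Cdc6 followed a like course from 45.9 through 58.6 with 3 mitotic genes to 18.3, and Cdc25a ran from 94.2 to 81.2 with 4 and 54.8 with 8. Of the 28 higher genes, 8 had their highest level with 0 to 2 mitotic genes, 15 with 3 or 4, 5 with 5 or 6, and 0 with 7 or 8. Over 7115 genes, rule genes included, these numbers were 2628, 1268, 1382 and 1837.

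Of the 35 other S-phase genes tested, 10 were highest with 3 or 4 mitotic genes and 18 with 5 or 6, and 34 of 35 were higher with 3 or 4 than with 0 or 1. Of the 7115 genes, 3825 were. Mcm6, of the rule, ran from 90.3 with 0 to 143 with 4 and 171 with 6 mitotic genes, and Rrm2 from 89.8 to 199 and 221. Dscc1 had 11.6 with 0, 36.2 with 4 and 42.7 with 5. In cells with all 8 mitotic genes the levels were lower again, at 120.5 for Mcm6, 173 for Rrm2 and 21.9 for Dscc1.

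Histone genes had a steep course. Of 16 genes with Hist symbols that were tested, 10 were at least 2-fold higher with 3 or 4 mitotic genes than with 0 or 1. Of all 7099 genes tested, 1.31% were. The median log2 difference of the 16 was 1.504. Hist1h1b, a linker histone, had 76.8 CPM with 0, 133 with 1, 238 with 2, 410.0 with 3 and 510.3 with 4 mitotic genes. Hist1h1e, another linker histone, ran from 51.7 with 0 to 170.0 with 4. Against all other cells together the histone median was near 0 (-0.08), and Hist1h1b had 275 in S-phase, 621 in S-and-mitotic and 34.1 in low-cycle cells. Most replication-linked histone transcripts carry no poly(A) tail, on which the 3' chemistry primes, so these values cover only the transcripts that were captured.

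Proliferation markers were higher, and Mxd4 lower, with more mitotic genes detected on the same axis. Because the axis itself counts mitotic genes, markers expressed along with them rise on it by construction. All 43 tested G2 and mitosis genes were highest with 7 or 8 mitotic genes, so the rises are descriptions only. Mki67, the gene of the Ki-67 antigen, ran from 15.5 with no mitotic gene to 122 with 4 and 366 with 8. The topoisomerase gene Top2a ran from 105 to 301, and Cdk1, the mitotic kinase, from 31.4 to 123. Mxd4 ran from 113 with 0 through 70.1 with 2 to 40.4 with 4 and 20.8 with 8. Its relative Mxd3, also a MAX partner, went the other way, from 1.45 to 8.33 and 24.4, at levels that rest on few UMIs in the first bins.

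**Figure D3:**
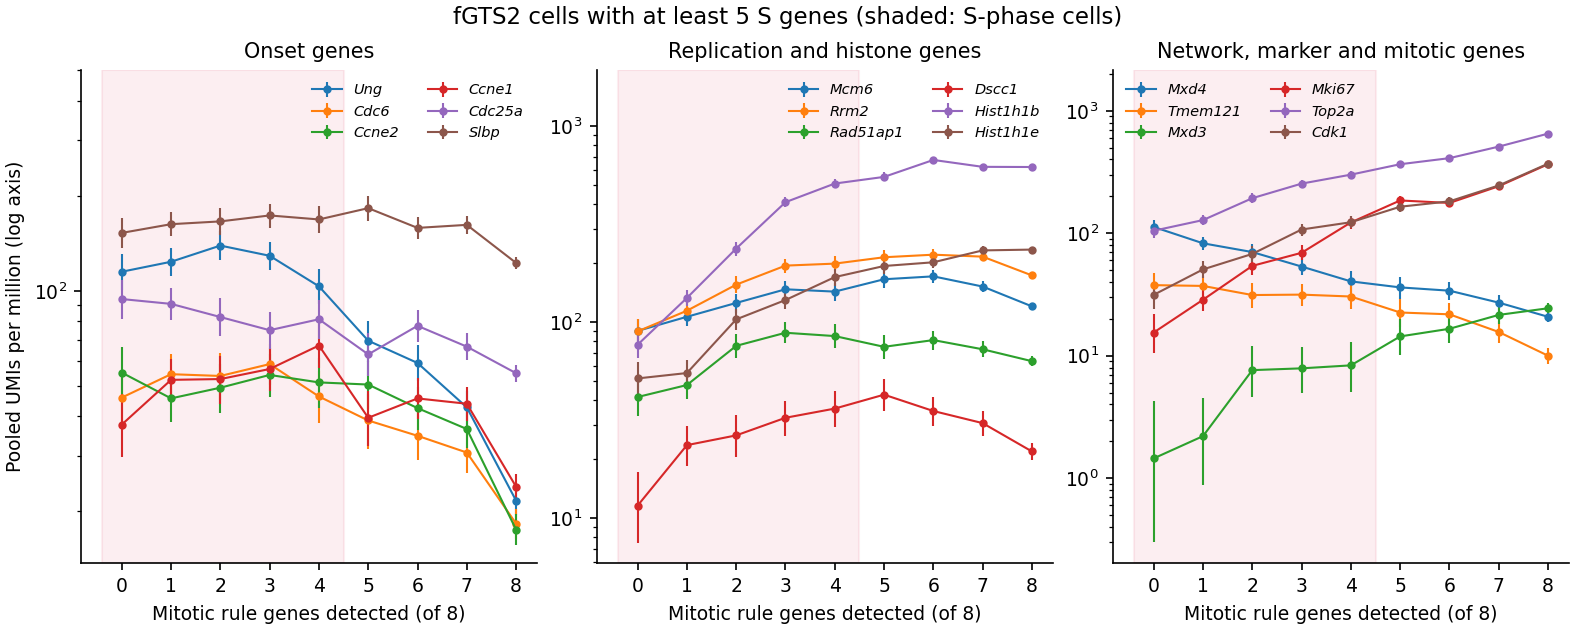
Pooled CPM (log axes) in fGTS2 cells with at least 5 S genes, by the number of mitotic rule genes detected (x axis, of 8). Bars are exact 95% Poisson intervals. The shaded range of 0 to 4 mitotic genes is the S-phase cells, across which Ung and Cdc6 stay within a narrow band, Hist1h1b and Mki67 climb and Mxd4 descends.

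Lists outside the cell cycle held few genes past 2-fold. Of 32 ribosome biogenesis and MYC target genes, 0 passed 2-fold, and their median log2 ratio was 0.10. Nolc1, a nucleolar chaperone, was the highest at 287 against 213 CPM. Medians were -0.0015 for 90 ribosomal protein genes, -0.05 for 18 respiratory chain genes, 0.05 for 16 glycolysis and hypoxia genes and -0.19 for 16 cholesterol synthesis genes, with 0 genes past 2-fold in any of these lists. Cell-cycle exit genes had 1 of 12 past 2-fold, the CDK4 and CDK6 inhibitor gene Cdkn2d, which was lower at 16.3 against 35.1. Of all 7099 genes tested, 0.394% were at least 2-fold higher and 0.761% lower.

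Genes of cell lineages and programs outside the cell cycle were compared too. Tuft-cell genes, of a chemosensory epithelial program, summed to 2909.6 CPM in S-phase cells and 2871 in the others, with 0 of 14 past 2-fold. In GTML_SOX9GFP the same list summed to 1527 and 1515 CPM, so these genes were not particular to fGTS2. Avil, an actin-binding protein of tuft cells, had 286 and 286, and Pou2f3, their defining factor, 44.0 and 46.0; these names were chosen after their values were seen. Alox5ap, of leukotriene synthesis, had 122 in S-phase and 127 in low-cycle cells against 45.8 in mitotic cells, and Rgs13, a regulator of G protein signalling, 129.9, 223 and 311. Of 13 granule progenitor and sonic hedgehog genes, which mark one lineage of medulloblastoma, 1 reached the level tested (Ptch1, 11.9 and 13.2). Of 26 neuronal genes 8 did, with a median log2 ratio of -0.15. That median was 0.085 at a filter of 3 or 30 CPM, 0.11 with no limit on mitotic genes and -0.28 without cells under 5000 UMIs, and the list summed to 409.6 CPM in S-phase and 392 in the other cells, so it gave no stable direction.

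Among markers of other cell types, those of immune, mural and erythroid cells were near 0, while single endothelial and oligodendrocyte markers were not. Summed over the list, microglia and macrophage markers gave 2.22 CPM in S-phase cells and 2.55 in the others, with 4 of 13 markers in the table and 2 of those 4 at 0 in S-phase cells. Mural and fibroblast markers gave 0.230 and 0.455, erythroid markers 0.689 and 0.299, and the 1 marker of T and NK cells in the data, of 6 on the list, had 0 UMIs in S-phase cells, which allows up to 3 UMIs. Endothelial markers, 2 of 6 in the data, summed to 23.1 and 24.8, almost wholly from Tek (22.6 and 24.5). Oligodendrocyte markers, 7 of 10 in the data, summed to 86.8 CPM in S-phase, 68.8 in the other and 60.0 in low-cycle cells. They were led by Mbp (42.8 and 31.3) and Olig1 (21.8 and 16.3), the 2 that were tested, with a median log2 ratio of 0.44 to the other and 0.98 to low-cycle cells. The part of such cells or their RNA in the S-phase levels was not tested.

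Of the genes the study turns on, Mycn had 56.8 CPM in S-phase cells (52.8 to 61.0) and 47.1 in the others (45.7 to 48.6). UMIs of a MYCN transgene and of the mouse gene were not told apart. Sox9 had 54.5 (50.6 to 58.6) against 70.7 in all other cells, 53.8 in S-and-mitotic, 62.6 in mitotic and 87.2 in low-cycle cells. Sox9 was lower in S-phase than in low-cycle cells by more than counting error, and its level in S-phase and S-and-mitotic cells differed by less. Counting error leaves out the spread between cells and between libraries, so neither difference carries a test. The DNA repair gene Mgmt had 28.5 against 27.6, the vesicle release gene Cadps2 148 against 127, and Trp53 77.9 against 66.9. Mki67 was among the 54 lower genes, at 57.7 against 167, but above low-cycle cells (19.0). Myc in single cells was not analysed here. No value is given for Slc1a2, which did not reach 10 CPM over all fGTS2 cells.

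Promoter sequences were set beside these lists, because E2F factors are known to bind TTTNNCGC-like elements at S-phase genes and the DREAM complex TTTGAA elements at mitotic genes. RefSeq promoters of the GRCm38.p6 build, from 250 bases before the start to 50 after it, were matched by symbol for 24 of the 28 higher genes, 45 of the 54 lower genes and 5681 of the 7099 genes tested. TTTNNCGC, on either strand, was found in 6 of 24 higher genes (25.0%), 4 of 45 lower genes (8.89%) and 655 of 5681 genes tested (11.5%). Of the 8 S genes of the rule, 6 were matched and 5 held it. TTTGAA, on either strand, went the other way, with 3 of 24 higher genes (12.5%), 28 of 45 lower genes (62.2%) and 785 of 5681 (13.8%). CCAAT, on either strand, was in 15 of 24 higher and 35 of 45 lower genes, against 2466 of 5681 (43.4%). CACGTG, the E-box that MYC and MAX are known to bind, was in 1 of 24 and 1 of 45, against 745 of 5681 (13.1%). The motifs were searched without regard to overlaps with each other, a match is not a bound site, and these shares carry no test.

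Stretches of 120 bases that end just before the start are shown for genes of both kinds, in the direction of the gene. Mcm6 and Hells are S genes of the rule and Cdc25a and Rfc3 are among the 28 higher genes, and capitals in these mark TTTNNCGC on either strand.
Mcm6: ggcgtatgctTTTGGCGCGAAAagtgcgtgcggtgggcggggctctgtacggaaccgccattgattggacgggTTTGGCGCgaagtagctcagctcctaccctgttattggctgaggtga
Hells: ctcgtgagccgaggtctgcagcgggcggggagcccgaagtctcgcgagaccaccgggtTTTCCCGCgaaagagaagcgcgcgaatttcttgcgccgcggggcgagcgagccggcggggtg
Cdc25a: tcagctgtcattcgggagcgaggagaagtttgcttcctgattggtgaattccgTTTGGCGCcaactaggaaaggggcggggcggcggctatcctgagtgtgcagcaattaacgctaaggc
Rfc3: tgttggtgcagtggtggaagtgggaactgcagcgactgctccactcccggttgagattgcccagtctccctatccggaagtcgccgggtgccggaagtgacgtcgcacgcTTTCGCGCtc
Mcm6 carries 3 matches, 2 of which overlap, and the match of Cdc25a begins 67 bases before the start. For contrast, Ube2c and Kpna2, a nuclear import receptor, are among the 54 lower genes, and capitals in these mark TTTGAA or its reverse complement TTCAAA.
Ube2c: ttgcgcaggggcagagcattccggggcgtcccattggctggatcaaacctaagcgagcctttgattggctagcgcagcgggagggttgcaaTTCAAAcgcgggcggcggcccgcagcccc
Kpna2: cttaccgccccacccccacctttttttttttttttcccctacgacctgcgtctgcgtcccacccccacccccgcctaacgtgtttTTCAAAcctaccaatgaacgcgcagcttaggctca
These 6 lie at chr1:128359706-128359825 (Mcm6, minus strand), chr19:38930870-38930989 (Hells, plus strand), chr9:109875459-109875578 (Cdc25a, plus strand), chr5:151651209-151651328 (Rfc3, minus strand), chr2:164769809-164769928 (Ube2c, plus strand) and chr11:106999526-106999645 (Kpna2, minus strand).

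The same rule was then applied to GTML_SOX9GFP, a library it was not written for. It found 798 S-phase cells of 4645, or 17.2% (16.1 to 18.3), against 11.8% in fGTS2. After thinning, the shares were 16.7% of 4149 and 11.2% of 4210 cells. The libraries shared 6 cell barcodes. In GTML_SOX9GFP, 17 of 7809 genes (0.218%) were at least 2-fold higher and 74 (0.948%) at least 2-fold lower in S-phase cells. Of the 28 genes higher in fGTS2, 27 were tested in both libraries. Of these 27, 26 were above the other cells in GTML_SOX9GFP and 11 at least 2-fold, with a median log2 ratio of 0.92. Of all 6652 genes tested in both, 3458 were above, 17 at least 2-fold higher and 62 at least 2-fold lower. Their median was 0.007. The same 16 rule genes divided the cells of both libraries. The 11 shared genes were 39.3% of the fGTS2 list and 64.7% of the GTML_SOX9GFP list. Of the 54 lower genes 44 were 2-fold lower there too, 81.5% of one list and 59.5% of the other. Across the 6652 genes tested in both libraries, Pearson's r between the log2 ratios was 0.725, given as a description, since genes share libraries and depth and are not replicates.

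Mcm4 had the highest ratio in the second library, at 96.2 CPM against 30.8, where fGTS2 had 112 against 44.1. Ccne1 stood at 41.9 against 19.6 in GTML_SOX9GFP, a log2 ratio of 1.10 against 1.83 in fGTS2. The gene that went the other way was Cebpb, a transcription factor, at 48.0 against 54.9 in GTML_SOX9GFP and 21.0 against 10.1 in fGTS2. Tmem121 was less distinct there, with 40.0 in S-phase, 26.1 in S-and-mitotic and 31.5 in low-cycle cells. Among lower genes, Cdkn3 had a log2 ratio of -1.92 in GTML_SOX9GFP and -3.25 in fGTS2, and Arid5b -0.47 and -1.63.

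**Figure D4:**
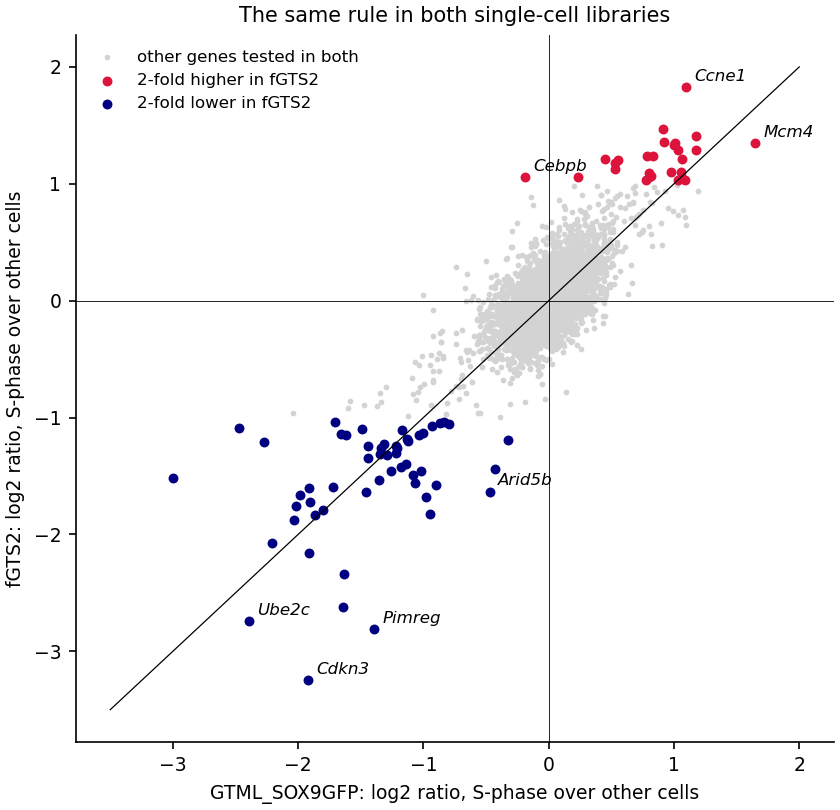
Log2 ratio of S-phase to other cells in GTML_SOX9GFP (x axis) and fGTS2 (y axis) for the 6652 genes tested in both, with the line of equal ratios. Of the 27 red genes 26 lie to the right of 0, Cebpb being the exception, and all 54 blue genes lie to the left of 0.

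The courses within S-phase cells of the second library are given side by side with those of fGTS2, with no test. Of the 27 genes tested in both, 12 were highest with 0 to 2 mitotic genes and 8 with 3 or 4. Over 7825 genes in GTML_SOX9GFP, rule genes included, these numbers were 3240 and 1596, so the first share was near that over all genes. The 36 other S-phase genes tested there had a median log2 difference of 0.21 between 3 or 4 and 0 or 1 mitotic genes, with 0 at 2-fold, against 0.65 with 5 at 2-fold in fGTS2. Over all genes the median was 0.04 with 39 of 7825 at least 2-fold higher, against 0.02 with 101 of 7115 in fGTS2. Hist1h1b ran from 76.3 CPM with no mitotic gene to 353 with 4, Mki67 from 29.1 to 180.1, and Ung from 173 to 125 and then 38.5 with all 8. Mxd4 went from 40.9 to 26.7 and Mxd3 from 12.7 to 21.7. Mcm6 was flatter than in fGTS2, at 172 with 0, 197 with 4 and 105 with 8.

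Bulk RNA of the DOX-treated lines gave a readout that the cell rule did not use. DOX turns the transgene off, and Mycn in GTML3 was at 8.69, 8.48 and 8.42 log2 CPM under DMSO and 4.93, 5.07 and 4.80 under DOX. In preGTS1 it was at 10.54, 10.45 and 10.91 under DMSO and 5.54, 6.13 and 5.65 under DOX. Mycn was lower in every DOX sample than in every DMSO sample of its line. Of the 28 genes higher in S-phase cells, 26 fell in GTML3 and 26 in preGTS1 (limma, Benjamini-Hochberg over 15926 genes, adjusted p under 0.05), where 31.4% and 33.7% of all genes fell. Their median log2 change was -2.20 in GTML3 and -2.65 in preGTS1, against 0.05 and 0.04 over all genes. In bulk RNA, fewer S-phase cells and less RNA per cell cannot be told apart. The labels do not say that the 3 samples of a condition were separate cultures, so the p-values rest on sample-to-sample spread that may be technical alone.

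Ccne1 in GTML3 was at 5.89, 5.97 and 6.10 log2 CPM under DMSO and 3.45, 3.24 and 3.33 under DOX. In preGTS1 Ccne1 was at 6.17, 6.203 and 6.31 under DMSO and 2.81, 2.43 and 2.26 under DOX. The groups did not overlap in either line. The log2 change of Ccne1 was -2.65 (SE 0.13, limma adjusted p = 6.437e-11) in GTML3 and -3.72 (SE 0.13, adjusted p = 1.074e-12) in preGTS1. Among the 28, the deepest fall in GTML3 was that of Mcm10, from 7.17 ± 0.05 to 3.44 ± 0.24 log2 CPM (SD, n = 3, limma adjusted p = 2.198e-12). In preGTS1 it was that of the histone chaperone gene Asf1b, from 5.57 ± 0.17 to 1.58 ± 0.68 (SD, n = 3, limma adjusted p = 8.874e-09).

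The exceptions were Tmem121 and Cebpb, which belong to no replication list. Tmem121 in GTML3 was at 3.93, 3.86 and 4.07 log2 CPM under DMSO and 3.57, 3.69 and 3.62 under DOX, a change of -0.33 that missed the threshold (limma adjusted p = 0.05738). In preGTS1 Tmem121 rose by 0.38 (limma adjusted p = 0.02861), and its groups did not overlap. That call was lost without preGTS1 DMSO replicate 1 (change 0.34, limma adjusted p = 0.09187), DMSO replicate 2 (0.38, adjusted p = 0.05909) or DOX replicate 2 (0.185, adjusted p = 0.1817). The change in GTML3 passed without preGTS1 DOX replicate 1 (limma adjusted p = 0.04615) or 2 (adjusted p = 0.01248), and with values centred on each sample's median (adjusted p = 0.03215). Cebpb rose by 0.70 in GTML3 (limma adjusted p = 0.008228), where its level was near 1 CPM, and had a change of 0.04 in preGTS1 (adjusted p = 0.8872). Mxd4, whose level was lower in S-phase cells with more mitotic genes detected, rose under DOX by 2.57 in GTML3 (limma adjusted p = 1.139e-12) and 1.91 in preGTS1 (adjusted p = 1.768e-11).

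All 8 S genes of the rule fell in both lines, with median changes of -3.22 and -3.67 on the log2 scale, and so did 36 of 36 other S-phase genes. Of all 15926 genes tested, 31.4% fell in GTML3 and 33.7% in preGTS1, with median changes of 0.05 and 0.04. Of the 54 genes lower in S-phase cells, 50 were tested in bulk, and 44 of these fell in GTML3 and 48 in preGTS1. Both sides of the single-cell contrast thus fell with DOX. Of the 28 higher genes, the response of 11 was lower in preGTS1 than in GTML3 and of 2 higher by the test of the difference (limma interaction, adjusted p under 0.05), where 25.1% and 17.1% of all genes passed in those directions.

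**Figure D5:**
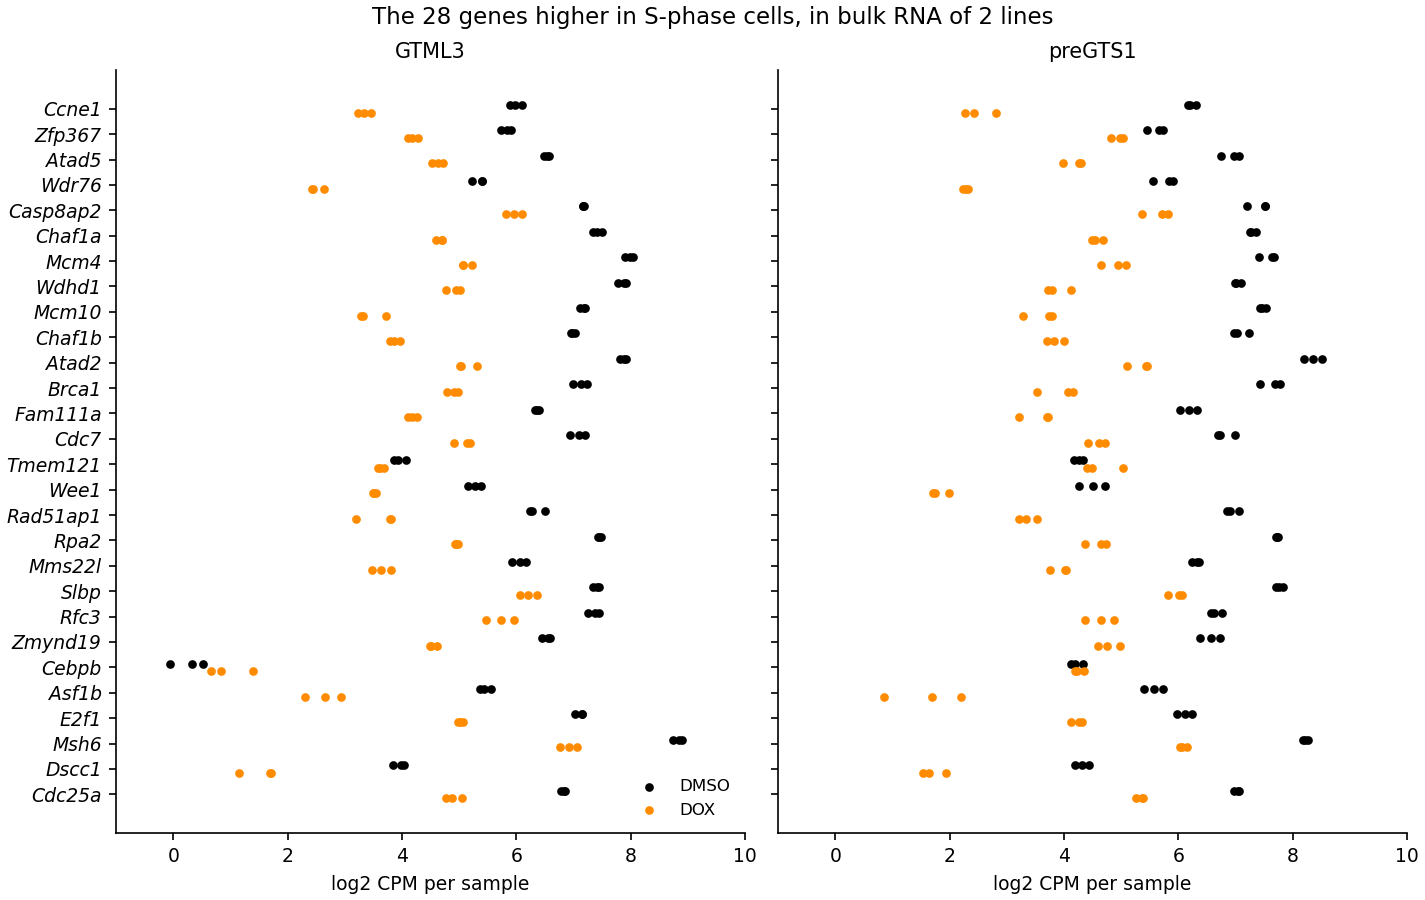
Log2 CPM in each bulk sample (x axis) of the 28 genes higher in fGTS2 S-phase cells (y axis, ordered by single-cell ratio), for GTML3 (left) and preGTS1 (right), 3 DMSO (black) and 3 DOX (orange) samples each. Of the 28 genes, 26 fell in both lines (limma adjusted p under 0.05), all but Tmem121 and Cebpb. Over all genes tested, 31.4% fell in GTML3 and 33.7% in preGTS1.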

How the data were processed

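The labels' protocols name the 10x Chromium 3' v3 kit for the single cells, and each deposited single-cell table gives UMI counts, as whole numbers, for 1 tumor sample. The bulk table deposited by the authors holds log2 CPM per gene. The submitters' processing notes name Cell Ranger 3.3.0 and Seurat 3.0 among other tools, and the build behind each table is not given in the sources used here. All 4498 and 4645 cells were kept. Doublets were not called, and the cell numbers that the study states match these.

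For each class, UMIs were summed over its cells and divided by the class total, giving CPM (total 103272381 UMIs in fGTS2) with exact 95% Poisson intervals. Genes needed 10 CPM over all cells, a gene was called at 2-fold, and rule genes were left out. Named genes are the 16 rule genes, the 15 highest and 10 lowest ratios, and up to 4 highest and 2 lowest of each list described. The 8 study genes were named too, with single-cell values for the 6 that reached the level tested. Exceptions are marked. Members and lists were chosen with earlier results of these data known.

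Bulk values were tested with limma 3.58.1 (trend and robust, 4 groups of 3 in 1 fit, threshold 0.05) in R 4.3.3, and sample titles gave the groups (each description names the following column and was not used). The filter of CPM of at least 1 in at least 3 samples removed 0 of 15926 genes. Whole reads, recovered for 100% of values within 0.1 read (10.861 to 24.672 M reads per sample), went into edgeR 4.0.16 as an alternative. Both steps were tested on simulated data. Alternatives changed the rule, thinning, comparison cells, filter, scaling, replicates and test.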

Additional observations from a re-analysis of the deposited data

Results flagged for a closer look

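Among the 15 genes with the highest ratio in S-phase cells, the response to DOX differed between the lines for 8 by a test of the difference itself (limma interaction term, Benjamini-Hochberg over 15926 genes), where 25.1% of all genes passed with a lower and 17.1% with a higher response in preGTS1. The value given is the log2 change in preGTS1 minus that in GTML3. It was -1.07 for Ccne1 (adjusted p = 0.0002477), -0.84 for Atad5 (adjusted p = 0.0003134), -0.64 for Wdr76 (adjusted p = 0.007025) and -0.56 for Casp8ap2 (adjusted p = 0.01329). It was -1.49 for Brca1 (adjusted p = 3.647e-05) and -0.46 for Fam111a (adjusted p = 0.04897). These 6 genes fell in both lines and fell further in preGTS1. The difference of Fam111a missed the threshold with values centred on each sample's median (adjusted p = 0.06319) and when any of 9 of the 12 samples was left out (adjusted p from 0.05258 to 0.1238), and was -0.29 without preGTS1 DOX replicate 2 (adjusted p = 0.09181). Zfp367 fell in both lines and less in preGTS1, with a difference of 0.97 (adjusted p = 5.842e-05) and changes of -1.64 in GTML3 and -0.66 in preGTS1. For Tmem121 the difference was 0.71 (adjusted p = 0.01154).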

How the results depend on the processing

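The share of S-phase cells in fGTS2 was 13.7% with at least 4 S genes, 9.69% with at least 6, 7.25% with at most 2 mitotic genes, 32.3% with no limit on mitotic genes and 10.4% when a gene needed 2 or more UMIs. The same settings gave 21.0%, 13.3%, 9.39%, 41.2% and 12.9% in GTML_SOX9GFP. Numbers of genes higher were 14 with at most 2 mitotic genes, 198 with no limit, 66 with 2 or more UMIs, 111 in thinned cells, 44 without the 5% of cells with the most UMIs, 296 against low-cycle cells alone, 54 by mean per-cell levels, 61 among genes with at least 3 and 13 with at least 30 CPM. Numbers lower were 84 with at most 2 mitotic genes, 8 with no limit, 18 with 2 or more UMIs, 24 in thinned cells, 13 against low-cycle cells, and 90 and 29 at the filters of 3 and 30. The median of the other S-phase genes was 0.38 with at most 2 mitotic genes, 1.64 with no limit, 1.07 with 2 or more UMIs, 1.42 in thinned cells, 2.33 against low-cycle cells and 0.95 by per-cell means. That of the G2 and mitosis genes was -1.27, 0.83, -0.33 and -0.0557 in the first 4 of these and 1.23 against low-cycle cells, so it turned positive with no limit and against low-cycle cells, where by construction the S-and-mitotic cells join the S-phase cells, or all cells with 5 or more mitotic genes leave the comparison. The cause of the other shifts was not tested. Leaving out cells under 5000 UMIs, chosen after seeing the data, kept every share and gene count within the limits used here.

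Under DOX, 26 of the 28 genes fell in each line, with 26 to 27 over the samples left out one at a time in GTML3 and 26 to 26 in preGTS1. With the replicate number as a block the counts were 26 and 26, and of the calls on named genes the block ended that on the difference of Fam111a between lines (adjusted p = 0.07144). Same-numbered samples correlated between -0.154 and 0.068, and 1 of 6 correlated best with its own number. With 3 samples per condition, these values cannot tell whether the numbers pair the samples. Of genes at least 3-fold higher in S-phase cells there was 1, and it fell in both lines. Over all genes, limma called 10484 in GTML3 and 10873 in preGTS1, and edgeR on the recovered reads 10651 and 11406. One library per class comparison and the depth of single cells limit what these values show.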

Other observations

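The 13 genes at least 2-fold lower in S-phase than in low-cycle cells were not mitotic genes for the most part. They included Mxd1, which like Mxd4 encodes a MAX partner that opposes MYC proteins, at 7.73 CPM in S-phase and 16.1 in low-cycle cells. Trp53inp1 and Bbc3, both known targets of p53, had 28.3 against 57.4 and 20.9 against 47.1. No list of p53 targets was compared, so this pair does not speak for the other targets. The nuclear non-coding RNA Neat1 had 12.3 against 29.8, and Il25, the cytokine of tuft cells, 8.34 against 17.99. Levels of Mxd1, Trp53inp1 and Il25 in S-and-mitotic cells were 7.61, 20.8 and 8.66. These genes were named after their values were seen, and the levels come from 1 library, with no test.

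Cyclin D1, which acts before cyclin E, was high throughout. Ccnd1 had 321 CPM in S-phase cells, 251 in low-cycle cells, 242 in S-and-mitotic cells and 217 in mitotic cells. Within S-phase cells it ran from 353 with no mitotic gene to 285 with 4. Under DOX, Ccnd1 fell by 2.27 on the log2 scale in GTML3 (limma adjusted p = 3.206e-08), and its change in preGTS1 was -0.24 (adjusted p = 0.2215). The difference between the lines was 2.03 (limma interaction, adjusted p = 1.728e-05).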
